A study of Mus musculus with 40 samples.

Results

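The nuclear genes of the mitochondrial respiratory chain and ATP synthase were followed in mouse neural stem cells after deletion of the Id genes. Genes were taken by their symbol on the array's annotation: those starting with Ndufa, Ndufb, Ndufc, Ndufs, Ndufv, Uqcr, Cox4 to Cox8 or Atp5, and Sdha, Sdhb, Sdhc, Sdhd and Cyc1. These symbols held 136 probes for 88 genes, and 118 probes for 83 genes were detected (detection p-value under 0.01) on at least 3 of the 40 arrays. In the whole series 21740 probes for 11087 genes passed that filter. The 5 genes that did not pass were Ndufs1, Sdha, Ndufaf6, Cox7b2 and Cox8c. The 83 genes comprised 5 core subunits, 28 supernumerary subunits and 7 assembly factors of complex I, 3 genes of complex II, 8 of complex III, 15 of complex IV, 16 of complex V (ATP synthase) and 1 pseudogene, Ndufs5-ps.

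Complexes I and II pass electrons from NADH and succinate to ubiquinone, complex III passes them on to cytochrome c, and complex IV (cytochrome c oxidase) to oxygen. Complexes I, III and IV pump protons, and complex V uses the resulting gradient to make ATP. Several small subunits of complex IV exist in alternative forms encoded by separate genes: Cox6a2, Cox7a1 and Cox8b are best known from heart and skeletal muscle, Cox4i2 from lung and low oxygen, and Cox6b2 from testis, while Cox4i1, Cox6a1, Cox6b1 and Cox7a2 are the widespread counterparts. Neural stem cells are known to rely more on glycolysis, and their differentiated progeny more on respiration.

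All cells were primary neural stem cells from the telencephalon of E13.5 mice (129/Svj;C57Bl/6 hybrid). Their Id1 and Id2 genes were floxed (L/L), Id3 was null (Id3-/-), and they carried Rosa-Cre-ER. They grew on laminin with 20 ng/ml each of FGF-2 and EGF. The Cre recombinase is expressed from a ubiquitous locus and becomes active when 4-hydroxytamoxifen (4-OHT) binds its oestrogen receptor part. Cells received 250 nM 4-OHT in ethanol, or vehicle, for 6, 12, 18, 24, 48, 96 or 144 h, with 3 arrays for each agent and time (replicates A, B and C) and 2 at 144 h (A and C). Vehicle cells therefore lacked Id3 too and carried the same floxed alleles and the Cre. The labels do not say whether replicates are separate cultures, so the p-values reflect how far these samples spread, and that spread may be technical. Values below are normalized log2 intensities. Differences are 4-OHT minus vehicle in log2 units with the standard error (SE) of a limma model over all arrays, and a gene was called at a Benjamini-Hochberg adjusted p under 0.05 over all probes.

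Between 15884 and 19186 probes, and 79 to 82 of the 83 genes, were detected on 39 arrays. On the dim vehicle array of replicate C at 6 h, 12947 probes and 77 of the genes were. By the array numbers in the labels, replicates A and B from 18 h on belong to run 1, replicate C from 18 h on to run 2, and all arrays of 6 and 12 h to run 3. The labels do not say that these are hybridization batches. The targeted genes followed the labels: Id1 differed by -4.79 ± 0.26 at 96 h (adjusted p = 5.33e-15) and Id2 by -4.94 ± 0.24 (adjusted p = 3.74e-16). All 10 neural stem cell markers of the list were detected, with a summed level of 13.79 to 14.01 with 4-OHT against 14.41 to 14.62 with vehicle at 96 h and of 13.70 to 14.02 against 14.61 to 14.62 at 144 h. Of these markers Slc1a3, a glutamate transporter gene, was called lower at both times, and the median difference of the 10 was -0.20 and -0.06. None of the microglia, fibroblast, endothelium or muscle and heart markers (0 of 6, 5, 4 and 4) passed the filter. The summed level of 12 oligodendrocyte lineage markers, 11 of them detected, was 14.40 to 15.07 with 4-OHT against 13.72 to 14.01 with vehicle at 96 h. At 144 h it was 14.94 to 15.46 against 13.69 to 14.01. The sum of 6 astrocyte markers was lower with 4-OHT at 96 h, 9.47 to 10.38 against 10.91 to 11.27, and at 144 h, 9.75 to 10.56 against 11.52 to 11.61. These sums add levels off the log scale, so the brightest genes weigh most. Gja1 alone read 9.33 and 10.24 against 11.22 and 11.06 at 144 h. Of the 6 markers, 5 lay below 0 at both times. Gja1 was called lower at both times, and S100b higher at both (0.82 ± 0.18 at 96 h, adjusted p = 0.0047). Gfap and Slc1a2 were called lower at 144 h. The sum of 9 neuron markers, 5 of them detected, was 12.43 to 12.55 against 12.10 to 12.20 at 96 h and 12.22 to 12.67 against 11.68 to 11.96 at 144 h. The brightest Map2 probe alone read 12.17, 12.01 and 12.32 against 11.66, 11.72 and 11.87 at 96 h. No neuron marker was called at 96 h (median difference 0.13), and Dcx, Map2 and Syt1 were called higher at 144 h (median 0.8). The part of these cell type differences in the results below was not tested, and fewer cells of a type cannot be told apart from less RNA per cell.

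No respiratory chain gene was called between agents at 6, 12, 18, 24 or 48 h, where 0%, 0%, 0.126%, 0.334% and 1.21% of all genes were called with limma. At an unadjusted p under 0.05 the counts were 5, 3, 0, 1 and 1 of 83, against 5.79%, 4.94%, 3.36%, 4.21% and 6.91% of all genes. At 96 h 2 of 83 genes were called, Cox4i2 higher and Cox7a1 lower (2.41%, against 5.7% of all genes, 3.02% higher and 2.68% lower). At an unadjusted p under 0.05 there were 6, against 15.5% of all genes. At 144 h 4 were called (4.82%, against 8.03%), with Cox4i2 higher (1.2%, against 4.21%) and Cox7a1, Cox6a2 and Cox8b lower (3.61%, against 3.82%). At an unadjusted p under 0.05 there were 15 (18.1%, against 19.5%). All 4 are tissue-restricted forms of complex IV subunits, and no gene of complexes I, II, III or V was called at any time. The share of members called was below that of all genes at both times.

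**Figure D1:**
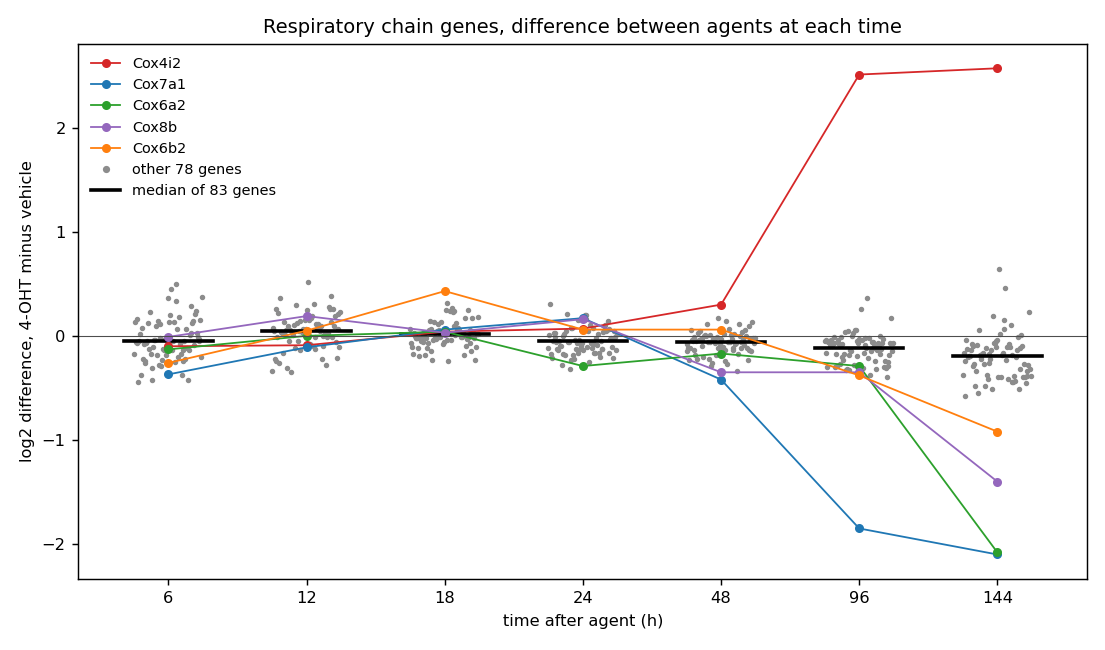
Log2 difference, 4-OHT minus vehicle, of the 83 genes at each time in hours (times evenly spaced). Coloured lines are the 5 complex IV isoform genes, grey points the other 78 genes, and black bars the median of all 83, which lay at -0.118 at 96 h and -0.196 at 144 h.

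Promoters of Cox7a1 and Cox8b, called lower with 4-OHT, are shown with those of the widespread forms Cox7a2 and Cox6a1, which were not called, as the RefSeq table of build GRCm38.p6 gives them. Each runs from 250 bases before to 50 bases after the annotated start, on the gene's strand (chr7:30183921-30184220, plus strand for Cox7a1, chr7:140900397-140900696, minus strand for Cox8b, chr9:79759804-79760103, minus strand for Cox7a2 and chr5:115348909-115349208, minus strand for Cox6a1). Capitals mark matches, on either strand, to the NRF1 motif GCGCATGCG, the ETS motif CCGGAAG that GABP binds, the YY1 motif AAGATGGCG, and the E-boxes CAGCTG and CAGGTG, which E proteins bind when Id proteins do not hold them.
Cox7a1: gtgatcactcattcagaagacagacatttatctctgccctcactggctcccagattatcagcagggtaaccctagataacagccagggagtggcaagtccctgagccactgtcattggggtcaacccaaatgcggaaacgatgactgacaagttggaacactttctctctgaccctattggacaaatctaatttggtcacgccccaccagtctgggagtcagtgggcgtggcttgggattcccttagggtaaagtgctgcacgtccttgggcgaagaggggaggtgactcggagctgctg
Cox8b: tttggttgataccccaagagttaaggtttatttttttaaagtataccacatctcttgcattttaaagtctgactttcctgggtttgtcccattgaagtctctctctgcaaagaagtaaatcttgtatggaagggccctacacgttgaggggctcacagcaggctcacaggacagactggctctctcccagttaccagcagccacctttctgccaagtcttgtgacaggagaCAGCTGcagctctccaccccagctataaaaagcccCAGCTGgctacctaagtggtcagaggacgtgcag
Cox7a2: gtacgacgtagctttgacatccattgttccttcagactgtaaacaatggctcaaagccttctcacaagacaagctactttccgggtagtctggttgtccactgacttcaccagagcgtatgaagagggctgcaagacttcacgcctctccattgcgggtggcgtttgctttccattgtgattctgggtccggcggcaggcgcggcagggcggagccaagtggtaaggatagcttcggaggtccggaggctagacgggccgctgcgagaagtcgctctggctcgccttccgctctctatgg
Cox6a1: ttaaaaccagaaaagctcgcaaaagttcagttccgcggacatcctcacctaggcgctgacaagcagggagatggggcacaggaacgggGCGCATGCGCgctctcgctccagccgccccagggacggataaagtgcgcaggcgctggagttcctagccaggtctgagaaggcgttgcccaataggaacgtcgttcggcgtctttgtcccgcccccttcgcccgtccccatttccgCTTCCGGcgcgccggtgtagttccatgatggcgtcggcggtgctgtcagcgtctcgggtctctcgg
Cox8b had 2 CAGCTG boxes and no match to the NRF1, ETS or YY1 letters. Cox7a1 and Cox7a2 held none of the 5 motifs, and Cox6a1 held 1 ETS match and a palindromic run that matched the NRF1 letters once on each strand. The E-box forms have different letters, so no stretch counted as both. Cox6b2, whose promoter is not shown, held none of the 5 motifs either. Cox6a2, Cox4i1 and Cox4i2 are named only. Cox6a1 is the counterpart of Cox6a2 and not of Cox8b. Promoters were used for 70 of the 83 genes. A gene counted once if the promoter of any of its listed starts matched. NRF1 letters were found in 14.3% of these genes against 1.95% of 27025 genes in the table, ETS letters in 25.7% against 9.93%, and YY1 letters in 11.4% against 1.64%. CAGCTG was found in 7.14% against 18.3%, and CAGGTG in 21.4% against 22.6%. Any E-box, CANNTG with N for any base, was found in 70.0% against 75.0%. These shares describe letters and not binding.

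Cox4i2, the alternative form of subunit 4 of complex IV, was called higher with 4-OHT at 96 and 144 h, and not up to 48 h. Its probe was detected on 8 of the 40 arrays, on none before 48 h and on no vehicle array before 144 h. It thus passed the filter through the arrays where it is high, and its calls describe that pattern and give no separate support for it. Its levels were 8.04, 7.54 and 5.11 with 4-OHT (replicates A, B and C) and 4.47, 4.45 and 4.23 with vehicle at 96 h. At 144 h they were 7.60 and 6.77 against 4.78 and 4.46. The groups did not overlap at either time, and replicate C stood much lower than A and B at 96 h. The probe was not above background on any vehicle array at 96 h, so the fold is a bound: at least 4.47-fold higher (difference 2.51 ± 0.35, adjusted p = 9.54e-06, n = 3 each). The difference at 144 h was 2.57 ± 0.43 (adjusted p = 0.000115, n = 2 each). Within the letters it was 3.57, 3.08 and 0.88 at 96 h, and 2.82 and 2.31 at 144 h. Up to 24 h no array of either agent was above background for it. At 48 h the 4-OHT arrays read 4.36, 4.63 and 4.76, with 2 of them above background, and the vehicle arrays 4.31, 4.30 and 4.24. In the test across all times Cox4i2 differed between agents (adjusted p = 1.15e-05) and its effect differed between times (adjusted p = 0.000425). These F tests called 2 of 83 genes each, Cox4i2 and Cox7a1, against 7.22% and 2.27% of all genes. Its counterpart Cox4i1 read 12.61, 12.62 and 12.75 with 4-OHT and 12.69, 12.83 and 12.69 with vehicle at 96 h, a difference of -0.08 ± 0.09 (adjusted p = 0.93).

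Cox4i2 is the next protein-coding gene after Id1, a deleted gene, in the order of the RefSeq table, and its annotated span overlaps that of Bcl2l1, which encodes the survival factor Bcl-xL. The following genes are named for their place beside Id1 and not for their values. Bcl2l1 was called higher with 4-OHT than with vehicle at 96 h on all 3 of its detected probes. On the probe detected on all 40 arrays the difference was 1.59 ± 0.30 (adjusted p = 0.000668). Its arrays read 9.17, 9.02 and 8.56 with 4-OHT and 7.13, 6.92 and 7.92 with vehicle. At 144 h that probe read 9.10 and 8.77 against 8.26 and 7.97 (difference 0.82, adjusted p = 0.236). Tpx2, a spindle protein gene that follows, differed by 0.05 ± 0.37 at 96 h (adjusted p = 0.997). Mylk2, the skeletal muscle myosin light chain kinase gene next to it, moved the other way: -1.08 ± 0.25 at 96 h (adjusted p = 0.00552) and -2.35 ± 0.30 at 144 h (adjusted p = 2.07e-06). On the other side of Id1, 1 of 7 detected probes of H13, a signal peptide peptidase, was called, with a difference of 1.22 at 96 h (adjusted p = 0.0108). The part of the position beside Id1 in the Cox4i2 result was not tested.

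**Figure D2:**
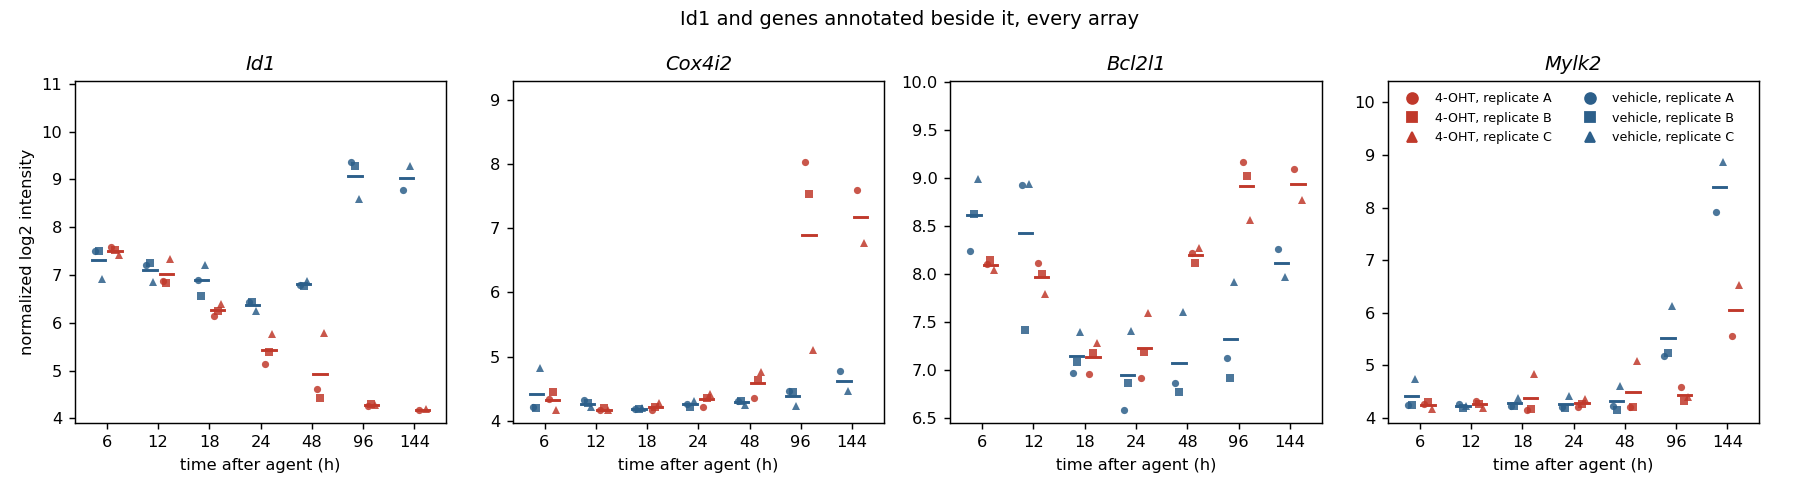
Normalized log2 intensity on every array for Id1, Cox4i2, Bcl2l1 and Mylk2, by time in hours (evenly spaced), with bars at group means; levels are not comparable between panels. With 4-OHT at 96 h Id1 lay at 4.27 to 4.30 and Cox4i2 at 5.11 to 8.04, while Mylk2 was higher with vehicle.

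Cox7a1 rose with culture time in vehicle, and its change with 4-OHT was not called over all arrays. Its vehicle levels were 4.86, 5.38 and 6.43 at 18 h (replicates A, B and C), 8.33, 8.15 and 6.70 at 96 h, and 8.67 and 7.95 at 144 h. With 4-OHT they were 5.21, 5.36 and 6.29 at 18 h, 5.88, 6.12 and 5.62 at 96 h, and 6.17 and 6.25 at 144 h. Every 4-OHT array lay below every vehicle array at 96 and 144 h, and the groups overlapped at 18 h. The difference between agents was -1.85 ± 0.38 at 96 h (3.61-fold lower, adjusted p = 0.00175) and -2.10 ± 0.46 at 144 h (4.30-fold lower, adjusted p = 0.00314). From 18 to 96 h vehicle rose by 2.17 ± 0.38 (adjusted p = 0.000834), while 4-OHT differed by 0.25 ± 0.38 (adjusted p = 0.726). Replicates A and B of vehicle differed far more between these times than C (6.43 and 6.70). Within run 1 alone, which holds A and B, the 4-OHT change was called too (0.71 ± 0.18, adjusted p = 0.00246), beside 3.12 ± 0.18 in vehicle (adjusted p = 2.24e-11). Within the letters the difference at 96 h was -2.46, -2.03 and -1.08. Without the 2 arrays of replicate A it was -1.55 (adjusted p = 0.0916), and at 144 h without vehicle replicate A -1.74 (adjusted p = 0.0577). Its counterpart Cox7a2 differed by -0.17 at each of 96 and 144 h (adjusted p = 0.836 and 0.816).

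Cox6a2 and Cox8b were called lower at 144 h and at none of the other 6 times, and each call was lost when 1 array was left out. Cox6a2 read 5.23 and 4.54 with 4-OHT against 5.84 and 8.09 with vehicle, a difference of -2.08 ± 0.43 (adjusted p = 0.00152, n = 2 each). The vehicle arrays lay far apart, and without vehicle replicate C the difference was -0.95 (adjusted p = 0.171). At 96 h its levels overlapped, 6.50, 6.34 and 5.82 against 6.14, 6.36 and 7.04. Cox8b read 4.27 and 4.25 with 4-OHT, not above background, and 6.38 and 4.93 with vehicle, at least 2.02-fold lower (difference -1.40 ± 0.34, adjusted p = 0.00744). Without vehicle replicate A this was -0.67 (adjusted p = 0.316), and without 4-OHT replicate A -1.41 (adjusted p = 0.0514). Both genes read higher in the run that holds the 6 and 12 h arrays: Cox6a2 between 7.43 and 8.09 on those 12 arrays, and Cox8b between 5.70 and 6.39. Run and time cannot be told apart there. Cox6a1 differed by -0.18 at 144 h (adjusted p = 0.841).

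Cox6b2 rose with time under both agents. Vehicle read 6.23, 6.46 and 7.41 at 18 h and 9.29, 9.42 and 7.93 at 96 h, a rise of 2.18 ± 0.39 (adjusted p = 0.00111). With 4-OHT it read 6.75, 6.71 and 7.94, then 8.70, 8.71 and 8.10, a rise of 1.37 ± 0.39 (adjusted p = 0.0226) that was not called without any 1 of 4 arrays (1.16 to 1.28). Replicates A and B differed by more between the times than replicate C did under either agent. At 144 h it read 7.84 and 8.86 with 4-OHT and 8.86 and 9.68 with vehicle (difference -0.92 ± 0.48, adjusted p = 0.343). This difference was called in a limma fit with a replicate block (adjusted p = 0.0189). A second Cox6b2 probe passed the detection limit on only 2 arrays and was not tested. Cox6b1 differed by -0.20 at 96 h (adjusted p = 0.88). No probe carried the symbol Cox8a, Ndufa4l2 or Atp5g1, so these forms were not analysed here.

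**Figure D3:**
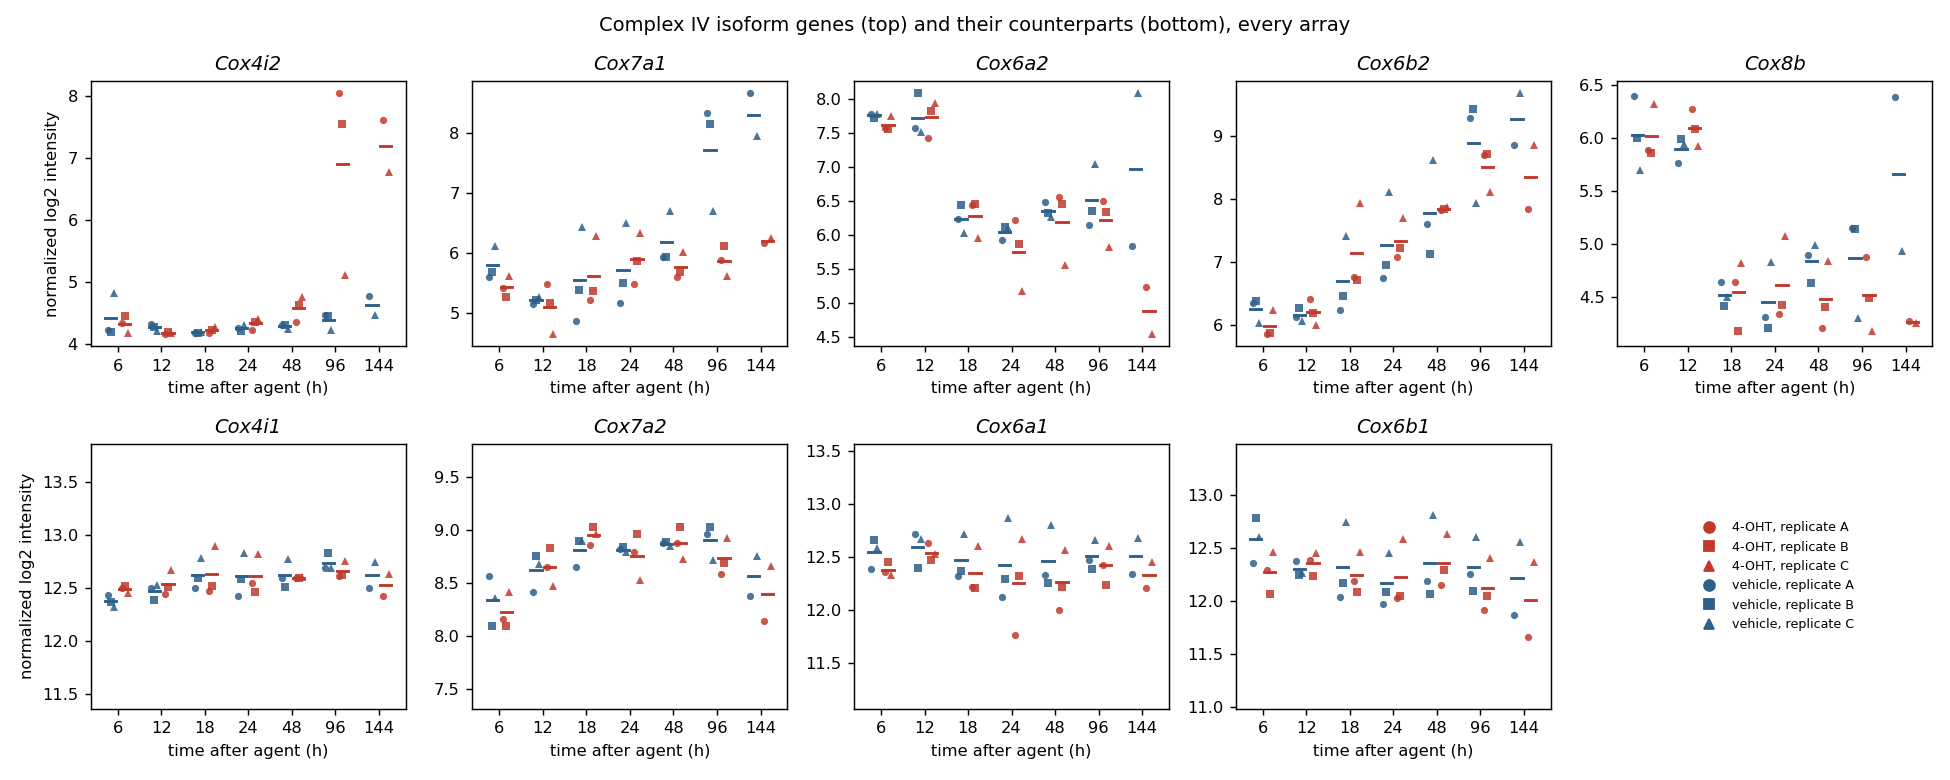
Normalized log2 intensity on every array for 5 restricted complex IV forms (top) and widespread counterparts (bottom, none for Cox8b), by time in hours (evenly spaced). Bars are group means, and levels are not comparable between panels. At 96 h Cox4i2 is high on 4-OHT arrays (5.11 to 8.04) and Cox7a1 on vehicle arrays (6.70 to 8.33).

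The remaining genes showed small differences that leaned downward with 4-OHT at the 2 last times. The median difference of the 83 genes was -0.118 at 96 h and -0.196 at 144 h, against 0.002 and 0.006 for all genes. At 96 h 73 of 83 genes lay below 0 (88%, against 49.8% of all genes), and at 144 h 72 (86.7%, against 49.2%). All arrays with 4-OHT lay below all vehicle arrays for 13 genes at 96 h (15.7%, against 10.6%) and for 31 at 144 h (37.3%, against 18.3%). Without the 5 restricted forms the medians were -0.109 and -0.193, and the differences ran from -0.40 to 0.36 and from -0.58 to 0.64. At 6, 12, 18, 24 and 48 h 54, 26, 40, 51 and 62 genes lay below 0, against 44.6%, 47.2%, 51.6%, 49.4% and 52.3% of all genes. At these times 6, 1, 0, 1 and 5 genes had all 4-OHT arrays below all vehicle arrays, against 4.05%, 4.65%, 4.01%, 5.84% and 8.11%. The reverse held for 6, 5, 1, 2 and 2 genes, against 8.34%, 5.3%, 3.4%, 5.9% and 7.56%, and at 96 and 144 h for 3 and 4, against 9.77% and 17.5%. The median at the earlier times ran from -0.061 at 48 h to 0.047 at 12 h. No p is given for the shift itself.

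On each array, the median of the 83 genes minus that of all genes was 3.53, 3.65 and 3.86 with 4-OHT and 3.75, 3.78 and 3.88 with vehicle at 96 h. At 144 h it was 3.34 and 3.73 with 4-OHT and 3.76 and 4.00 with vehicle. The groups overlapped at 96 h and did not at 144 h, and replicate C was the highest of its group in each of these. Between arrays of the same letter, and so of the same run, 69, 59 and 54 of 83 genes lay lower with 4-OHT at 96 h (replicates A, B and C; medians -0.18, -0.14 and -0.06). At 144 h 70 and 67 genes did (A and C; medians -0.24 and -0.18). The 15 comparisons by letter at earlier times had medians from -0.12 to 0.10, with 20 to 68 of 83 genes below 0. The highest of these counts, 68 at 48 h and 60 at 24 h in replicate C, were above those of replicates B and C at 96 h. The median at 144 h rested on few arrays: it was -0.05 without 4-OHT replicate A, -0.07 without vehicle replicate C, -0.39 without 4-OHT replicate C and -0.35 without vehicle replicate A.

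**Figure D4:**
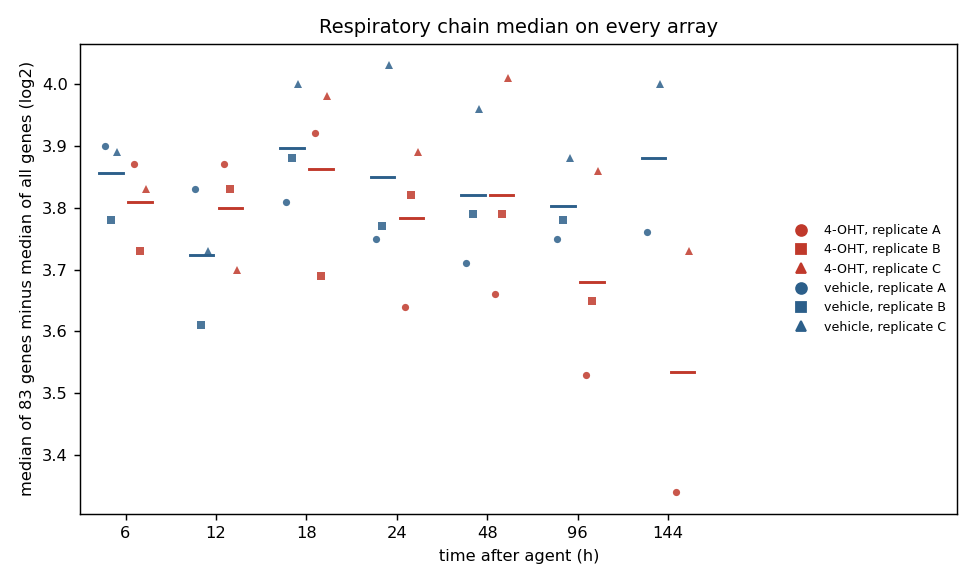
Median log2 level of the 83 genes minus the median of all genes on each array (vertical axis does not start at 0), by time in hours (evenly spaced) and agent, with bars at group means. Replicate C lies high from 18 h on under both agents, and the 4-OHT arrays lie below the vehicle arrays at 144 h.

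By complex, all 16 ATP synthase genes lay below 0 at both 96 h (-0.30 to -0.01) and 144 h (-0.58 to -0.04), none of them called, by 1 probe per gene. At 6, 12, 18, 24 and 48 h 12, 6, 13, 12 and 13 of the 16 did. Of 9 further detected probes of these genes, 1 lay above 0 at 96 h (Atp5j, 0.05) and 3 at 144 h (Atp5j 0.22, Atp5a1 0.09 and Atp5pb 0.07). Atp5d, the delta subunit of the F1 part, had the lowest value at 144 h, with levels of 10.63 and 10.89 against 11.20 and 11.47 (-0.58 ± 0.27, adjusted p = 0.269). Atp5e, the epsilon subunit of the same part, differed by -0.04. The subunit c genes Atp5g2 and Atp5g3 differed by -0.13 and -0.20 at 144 h. The 3 complex II genes read lower by 0.24 to 0.40 at 96 h. Of these Sdhd, a membrane anchor, read 8.27, 8.19 and 8.25 with 4-OHT and 8.81, 9.21 and 7.90 with vehicle (-0.40 ± 0.22, adjusted p = 0.485). Replicate C of vehicle lay below all 4-OHT arrays there.

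In complex III 7 of 8 genes lay below 0 at each of 96 and 144 h, and 4, 3, 4, 6 and 7 at 6, 12, 18, 24 and 48 h. Cyc1, cytochrome c1, was the nearest to a call: 10.53 and 10.62 with 4-OHT against 11.20 and 10.91 with vehicle at 144 h (-0.48 ± 0.17, adjusted p = 0.0916), and 10.81, 10.55 and 10.73 against 11.04, 10.98 and 11.03 at 96 h. No arrays overlapped at either time. Uqcrc1, a core protein, differed by -0.39 at 144 h, and Uqcrfs1, the Rieske iron-sulphur protein, by 0.23 on a probe detected on only 6 arrays. In complex IV 13 of 15 genes lay below 0 at both times, and 13 did at 6 h too. At 12, 18, 24 and 48 h the complex IV count was 5, 6, 6 and 10.

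Complex I split in the same way, with 5 and 4 of 5 core genes, 22 and 24 of 28 supernumerary genes, and 6 and 4 of 7 assembly factors below 0 at 96 and 144 h. The supernumerary count at 6, 12, 18, 24 and 48 h was 20, 8, 8, 21 and 22. At those times 0, 0, 3, 1 and 2 core genes and 3, 2, 3, 2 and 5 assembly factors lay below 0. Ndufs7, a core iron-sulphur subunit, read 10.81 and 11.22 against 11.29 and 11.77 at 144 h (-0.51 ± 0.17, adjusted p = 0.0561), and Ndufv1, the NADH-binding subunit, differed by -0.32. The 4-OHT arrays did not overlap with vehicle for either. Ndufc2 differed by -0.32 ± 0.12 at 96 h (adjusted p = 0.134), and Ndufa4, long counted with complex I and now known as a subunit of complex IV, by -0.51 at 144 h (adjusted p = 0.319). Of the complex I genes above 0 at 96 or 144 h none was called, and Ndufaf2 and Ndufb11 had the highest values at both times. Ndufaf2, an assembly factor, read 9.77 and 10.07 against 9.08 and 9.48 at 144 h (0.64 ± 0.26, adjusted p = 0.177). In a limma fit with a replicate block it was called (0.64 ± 0.16, adjusted p = 0.00782). It was also called with each pair of arrays of the same letter and time as a random block (adjusted p = 0.0202). Ndufb11, a membrane arm subunit, read 6.70 and 6.84 against 6.23 and 6.39 (0.46 ± 0.26, adjusted p = 0.398). Another assembly factor, Ndufaf4, differed by -0.40 (adjusted p = 0.538). The pseudogene Ndufs5-ps, uncertain because it is a near copy of Ndufs5, differed by -0.14.

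**Figure D5:**
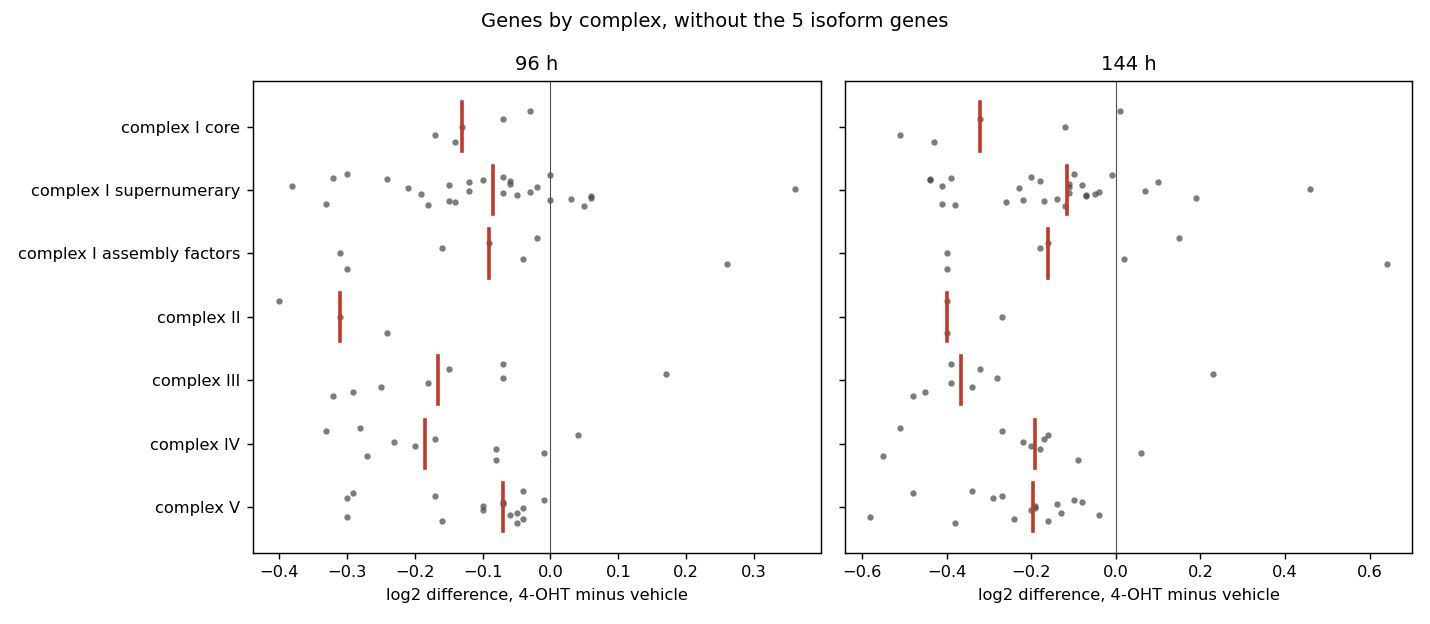
Log2 difference, 4-OHT minus vehicle, of single genes (points) by complex at 96 and 144 h without the 5 restricted forms and the pseudogene; red bars are medians, and the 2 panels have different horizontal ranges. All 16 complex V genes lie left of 0 in both panels.

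With array run as a term in the model, 2 genes were called at 96 h, the same as without it, against 8.82% of all genes. At 144 h 11 were called, 10 of them lower, against 12.3% of all genes. Besides the 4 complex IV forms these were Cyc1, Uqcr10, Ndufs7, Ndufa4, Ndufc1, Cox5a and Atp5o, all lower. Within run 1 alone (replicates A and B) 17 were called at 96 h, 16 of them lower, against 23.9% of all genes. Among these Cox4i2 differed by 3.33 ± 0.15 (adjusted p = 7.16e-13), Cox7a1 by -2.24 ± 0.18 (adjusted p = 5e-09), Sdhd by -0.78 ± 0.14 (adjusted p = 0.000282) and Ndufb4 by -0.75 ± 0.16 (adjusted p = 0.00157). With a replicate block, 4 genes were called at 96 h (against 14.3% of all genes), with Cyc1 and Ndufc2 added, and 18 at 144 h, 16 of them lower (against 19.8%). Run 2 holds 1 array of each group and gives no test of its own. Counted in either direction, the share of members called was near or below that of all genes in each of these fits. The share of all genes called lower was not computed for them, so the lower calls alone have no such comparison.

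The change of the effect itself, late (96 and 144 h) minus early (6 and 12 h), was called for 6 of 83 genes (7.23%, against 7.83% of all genes). It was positive for Cox4i2 (1 gene, against 3.81%) and negative for Cox7a1, Cox8b, Ndufaf1, Cyc1 and Uqcr10 (5 genes, 6.02% against 4.02%). Differences below 0 were found for 66 of 83, against 53.3% of all genes, and an unadjusted p under 0.05 for 17, against 20% of all genes. Over culture time, 4 genes rose in vehicle from 18 to 96 h and 0 fell (4.82% against 5.14% of all genes, and 0% against 2.05%, 7.19% in either direction): Cox7a1 and Cox6b2, described above, with Ndufv3 and Cox7a2l. Ndufv3, a complex I accessory subunit, read 10.38, 10.37 and 10.78 at 18 h and 11.45, 11.45 and 11.25 at 96 h (0.87 ± 0.18, adjusted p = 0.00423). Cox7a2l, which helps to join complexes III and IV, rose by 0.51 ± 0.13 (adjusted p = 0.0164). With 4-OHT 3 genes rose and 2 fell (3.61% against 7.87%, and 2.41% against 3.88%, 11.7% in either direction). Differences from 18 to 96 h lay below 0 for 37 genes in vehicle (against 48.8% of all genes) and for 59 with 4-OHT (against 47.8%). An unadjusted p under 0.05 was found for 9 and 14 genes, against 23.1% and 27.8%. Cox4i2, Cox6b2 and Cox7a2l (0.48, adjusted p = 0.016) rose, while Ndufa10, a supernumerary subunit (-0.62, adjusted p = 0.0213), and Sdhd (-0.70, adjusted p = 0.0405) fell. Atp5k, subunit e of ATP synthase, differed most in the downward direction among vehicle arrays, by -0.85 ± 0.33 (adjusted p = 0.124). Any change in vehicle between 18 and 144 h was called for 7 genes (8.43%, against 16.4%), the 4 above with Cox8b, Ndufaf2 and Ndufb11.

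Other mitochondrial genes were read from lists chosen beside the respiratory chain. None of 33 assembly factors outside the rule, 73 mitochondrial ribosome genes or 8 subunits encoded in the mitochondrial genome was called at 48, 96 or 144 h. Of all genes 1.21%, 5.7% and 8.03% were called at these times. The mitochondrially encoded subunits had median differences of -0.02 at 96 h and 0.01 at 144 h, and the mitochondrial ribosome -0.06 and -0.01. Of 19 citric acid cycle and pyruvate dehydrogenase genes, 18 lay below 0 at both 96 and 144 h (medians -0.24 and -0.39), against 49.8% and 49.2% of all genes. At 6, 12, 18, 24 and 48 h 11, 12, 12, 8 and 13 of the 19 did. At 144 h 2 were called lower with 4-OHT (against 3.82% of all genes). These were Cs, citrate synthase (-0.99 ± 0.27, adjusted p = 0.0202), and Pdk4, a kinase that inhibits pyruvate dehydrogenase (-0.78 ± 0.21, adjusted p = 0.0156). Of 13 electron and metabolite carriers, Cycs, cytochrome c (-0.55 ± 0.15, adjusted p = 0.0246), and Etfa were called lower with 4-OHT than with vehicle at 96 h. At 144 h Vdac2 and Etfa were. Of all genes 2.68% and 3.82% were called lower at these times. Ppargc1a, among 19 biogenesis regulators, encodes the coactivator PGC-1alpha that drives respiratory chain genes in muscle and brown fat. It was called lower with 4-OHT than with vehicle at 48, 96 and 144 h, by 1.26, 1.45 and 1.98 on the log2 scale (adjusted p = 0.0269, 0.00215 and 0.0005). Its arrays read 5.74, 5.91 and 5.48 with 4-OHT against 7.33, 7.28 and 6.88 with vehicle at 96 h. At 144 h Nfe2l2 was also called lower with 4-OHT, and Nrf1 higher (0.79 ± 0.24, adjusted p = 0.0409). Of 16 glycolysis genes Aldoc was called lower with 4-OHT than with vehicle at 96 h, and Eno2 at 144 h. From 18 to 96 h 9 of 16 rose in vehicle, Aldoc and Eno2 among them (median 0.80, against 5.14% of all genes higher). With 4-OHT 2 of 16 rose over that time (median 0.47, against 7.87%), and 0 of 16 lay below 0. The difference between these counts was not tested.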

How the data were processed

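Total RNA was hybridized to Illumina MouseWG-6 BeadChips. The deposited table gives an intensity per probe, not normalized, and a detection p-value from GenomeStudio, per the labels. The authors also deposited log2 values made with lumi and quantile normalization, per the labels, used here as an alternative. The sources used here give no versions of these. Of 45281 probes, 21 had rows out of step with the header and were left out.

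Intensities were background-corrected and quantile normalized with neqc of limma 3.58.1 (R 4.3.3, offset 16). Probes detected (p-value under 0.01) on 3 or more arrays entered 1 model with a mean per group (14 groups, 26 residual degrees of freedom, moderated variances with a trend). A gene was represented by its probe detected on the most arrays, ties by mean level. Not above background means a detection p-value of at least 0.05 on all of a group's arrays. For a bound, each such array was set to its lowest detected signal or the probe's own if higher. The number of arrays limits the precision.

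Members and lists were chosen with earlier results of these data known. Named genes were those called at any time, the highest and lowest of each complex, the isoform genes, the leading changes over time and the called genes of each list. Neighbours of Id1 and Id2 come from the RefSeq table. Promoter motifs were searched on both strands. The model was tested on simulated data. Alternatives covered scaling, offset, filter, blocks, array weights, the authors' values and leaving out arrays.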

Additional observations from a re-analysis of the deposited data

Results flagged for a closer look

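The effect of 4-OHT was called as differing between late times (96 and 144 h) and early times (6 and 12 h) for 6 genes in the limma test of that difference. This was 7.23% of the 83 genes, against 7.83% of all genes, and the count ran from 2 to 9 when arrays were left out. The F test for an effect differing between times called only Cox4i2 and Cox7a1 of these. For Cox4i2 the late minus early difference was 2.63 ± 0.37 (adjusted p = 9.78e-06), from effects of -0.10 and -0.09 at 6 and 12 h and of 2.51 and 2.57 at 96 and 144 h. For Cox7a1 it was -1.74 ± 0.40 (adjusted p = 0.0053), and for Cox8b -0.96 ± 0.29 (adjusted p = 0.0403). Cyc1, with effects of 0.09 and 0.10 early and -0.32 and -0.48 late, gave -0.49 ± 0.15 (adjusted p = 0.0347). Ndufaf1, which helps to assemble the membrane arm of complex I, had effects of 0.13 and 0.21 early and -0.30 and -0.40 late, a difference of -0.52 ± 0.15 (adjusted p = 0.0326). For Uqcr10, a small subunit of complex III, the difference was -0.48 ± 0.15 (adjusted p = 0.0472). Early and late arrays lie in different runs, each of which holds both agents.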

How the results depend on the processing

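Recomputed under the alternatives, 140 of 147 median differences and 245 of 336 counts of called genes stayed within their limits, and 200 of 218 single gene results kept their call. No result reversed its direction among those called. A count below that has no share of all genes beside it is not a result about the members. Median scaling in place of quantile normalization shifted the all-probe median difference by 0.34 (6 h) and -0.11 (144 h). It gave members a median of 0.58 at 6 h, where its sign turned, -0.13 at 18 h and -0.38 at 144 h. Less the shift of all probes these were 0.24, -0.03 and -0.26. Under it 3 genes were called late minus early, 2 in vehicle and 1 with 4-OHT from 18 to 96 h, 1 for an effect that differed between times, and 3 for any vehicle change. With no detection filter the late minus early count was 2 and the count of effects differing between times 1. Detection on at least 20 arrays, which removes Cox4i2, left 1 gene at 96 h, 1 at any time and 1 with an effect differing between times.

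Residuals of arrays with the same replicate letter correlated at -0.143 to 0.421 at 6 and 12 h, at 0.367 to 0.783 from 18 to 96 h and at 0.671 for both pairs at 144 h. The own letter was the best match in 13 of 20 pairs, among them all 5 pairs at 96 and 144 h. With 2 arrays per group at 144 h, the residuals of A and C mirror each other. The 2 pairs there therefore give the same value and are not separate matches. From 18 h on replicate C is also the only array of run 2 in each group, so letter and run cannot be told apart for it. With a replicate block the counts were 1 at 48 h, 4 at 96 h, 18 at 144 h (16 lower), 16 late minus early and 12 at any time, against 14.3% of all genes at 96 h and 19.8% at 144 h. With each pair of the same letter and time as a random block (correlation 0.408) they were 4 at 96 h (against 12.7% of all genes), 14 at 144 h (against 17.5%), 16 late minus early, 10 at any time and 4 for an effect differing between times. With array run as a block they were 11 at 144 h, 10 late minus early, 11 with 4-OHT from 18 to 96 h, 5 at any time and 12 for any vehicle change. The first run alone gave 1 at 24 h, 1 at 48 h, 17 at 96 h, 26 in vehicle and 24 with 4-OHT from 18 to 96 h. For these fits the share of all genes called, in either direction, was computed only for 96 and 144 h. Their other counts have none beside them.

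Array weights, whose estimation stopped before its tolerance was reached, gave 4, 1, 4, 4, 30 and 2 genes at 12, 18, 24, 48, 96 and 144 h, 31 in vehicle and 40 with 4-OHT from 18 to 96 h, 31 at any time, 20 for an effect differing between times and 34 for any vehicle change. The share of all genes called was not computed with array weights, so these counts cannot be set against it. Each time fitted alone called 0 genes at 96 h and 0 at 144 h, where the adjusted p of Cox4i2 was 0.109 and 0.148. Counting all probes gave 8 with 4-OHT from 18 to 96 h and 12 for any vehicle change.

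Leaving out arrays 1 at a time or by letter gave 1 to 5 genes at 96 h, 3 to 7 at 144 h, 2 to 9 late minus early, 3 to 6 in vehicle, 1 to 8 with 4-OHT from 18 to 96 h, 2 to 4 at any time, 1 to 3 for an effect differing between times and 5 to 10 for any vehicle change. Counts at 6 to 48 h were 0 in each. Medians ran from -0.09 to -0.02 at 6 h, 0.03 to 0.08 at 12 h, -0.08 to 0.08 at 18 h, -0.11 to 0.06 at 24 h, -0.13 to 0.03 at 48 h, -0.18 to -0.09 at 96 h and -0.39 to -0.05 at 144 h. The difference of Cox4i2 ran from 1.94 to 3.40 at 96 h and was called in each. The cause of these changes was not tested. At 144 h the calls of Cox7a1, Cox6a2 and Cox8b were each lost without 1 array, and that of Cox4i2 in none of 4 such refits (2.15 to 2.98).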

Other observations

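The protein-coding genes annotated next after Id2, the other floxed gene, are Rnf144a, Rsad2 and Cmpk2, named here for their place after their values were seen. Rnf144a differed by 1.81 ± 0.30 at 96 h (adjusted p = 0.000109) and Rsad2 by 2.21 ± 0.35 (adjusted p = 7.3e-05), while Cmpk2 differed by 0.66 at 96 h (adjusted p = 0.355) and 1.90 at 144 h (adjusted p = 0.0015). Sox11, which follows Cmpk2, differed by -0.07 at 96 h (adjusted p = 0.975) and 0.28 at 144 h (adjusted p = 0.535). On the other side, the detected probe of Kidins220 differed by 0.26 at 96 h (adjusted p = 0.663). Beyond it, Mboat2 and Rrm2 differed by -0.04 and -0.27 at 96 h (adjusted p = 0.996 and 0.894), by 1 probe per gene.

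The 4 probes of Ndufab1, the acyl carrier protein of complex I, disagreed over time in vehicle: 1 fell by 1.32 from 18 to 96 h (adjusted p = 0.00402), and the other 3 differed by -0.16 to -0.41 without a call.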
